A study of Mus musculus with 2 samples.

Results

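Rab GTPases are the largest branch of the Ras superfamily and were followed here through the mouse genes whose symbol is Rab, a number and at most a letter with further digits. Among the 22886 genes measured, 58 were Rab genes, and each stood on 1 line of the deposited values. A Rab protein cycles between a form bound to GTP, which sits on a membrane and recruits effectors such as tethers and motors, and a form bound to GDP, which a dissociation inhibitor keeps in the cytosol. Exchange factors switch a Rab on, GTPase-activating proteins switch it off, and each Rab marks a particular compartment. In macrophages and other phagocytic cells, Rab5 and Rab7 are known for guiding engulfed material from the early endosome to the lysosome. The measurements came from 2 mRNA sequencing libraries of sorted cells that the labels call aerobic, taken from Lewis lung carcinoma (LLC) tumors, a transplantable mouse lung tumor, grown under the skin of wild type C57BL/6 mice. Injections were of vehicle or clodronate, a drug used to remove phagocytes, and each condition had 1 library. A difference between the libraries therefore had no replicate check and no test, and the labels give no age, dose or number of mice behind a library. The labels also carry a growth protocol for EML cells, a blood progenitor line, which conflicts with the tumor source.

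Levels are given as RPKM, read numbers corrected for transcript length and library size, which allows genes of different length to be set side by side. The value of 1 read could be recovered from the low RPKM values, and it gave about 12808000 reads for the vehicle library and 10432000 reads for the clodronate library. The labelled cell source was set beside marker genes. All 16 macrophage markers passed the filter in both libraries, from 22.5 to 10534 RPKM in the vehicle library and from 42.3 to 11189 RPKM in the clodronate library, with Lyz2 the highest, and summed to 28398 and 26712 RPKM. Of 8 epithelial markers, 4 were listed at 0 in both libraries, Epcam among them, and Cdh1 had the highest value, 6.44 RPKM in the clodronate library. The summed RPKM of 10 fibroblast markers was 160.2 in the vehicle library and 76.9 in the clodronate library. The summed RPKM of 15 proliferation genes was 270.5 and 413.9, and that of 12 interferon response genes 151.5 and 401.1, in the same order. Whether these differences had a part in any Rab value was not tested, and in sorted bulk cells fewer cells of a type and less RNA per cell cannot be told apart.

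The Rab genes were abundant, and as a family they held nearly the same share of the RNA in both libraries. Their RPKM summed to 2138 in the vehicle library and 2092 in the clodronate library, which is 0.355% and 0.351% of all RPKM. Of the 58 genes, 38 averaged 1 RPKM or more over both libraries, the filter used for ratios. Their median level was 34.7 RPKM in the vehicle library and 32.1 RPKM in the clodronate library, against 11.1 and 11.3 RPKM over all 10982 genes that passed the same filter. In both libraries 26 of the 38 stood at 10 RPKM or more. The 38 levels kept their order between the libraries to a large degree, with a rank correlation across genes of 0.935, in which genes are not independent replicates. The plot of levels by role shows both libraries for each of these genes.

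**Figure D1:**
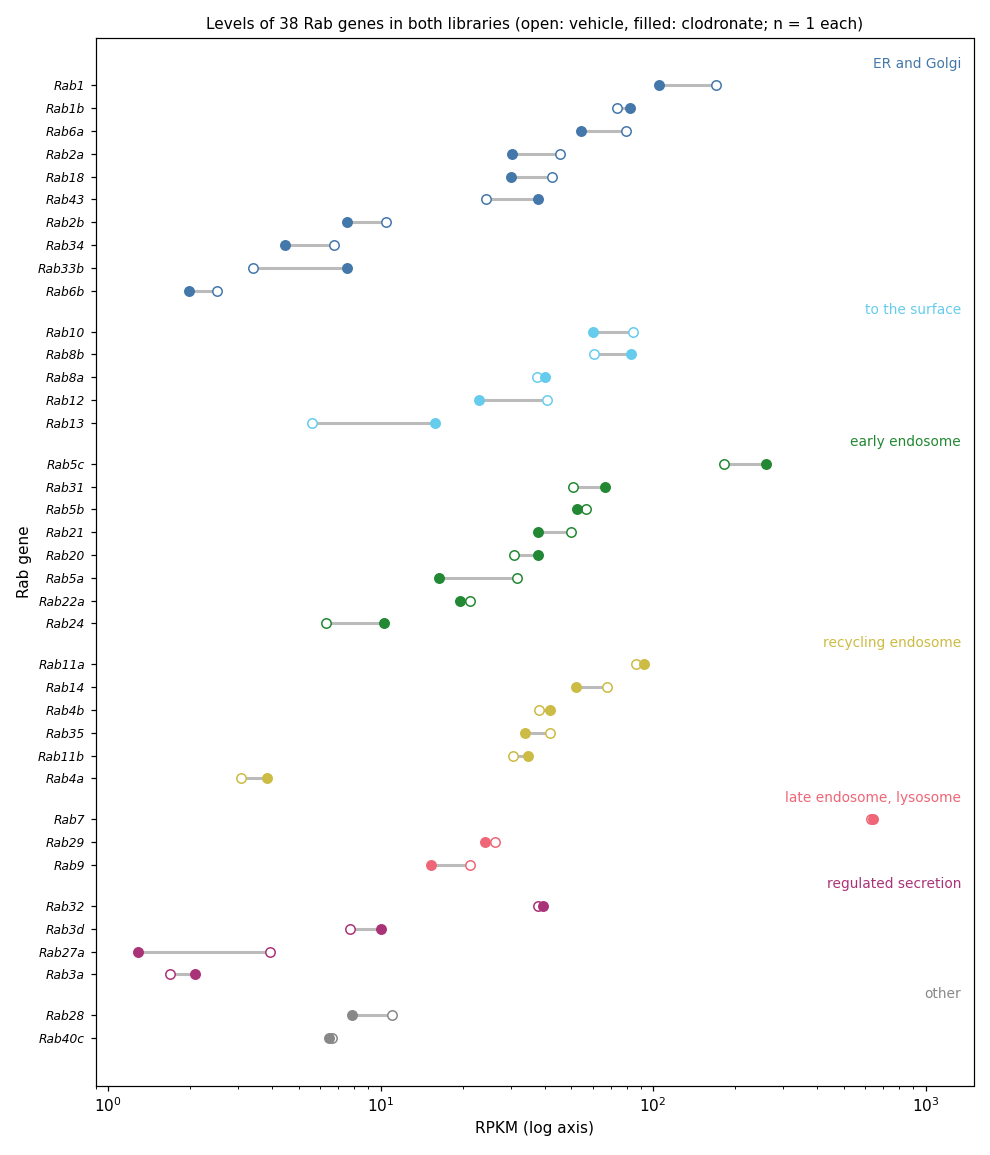
Level of each of the 38 Rab genes that passed the filter, in RPKM on a log axis, in the vehicle library (open circles) and the clodronate library (filled circles), grouped by role and joined by a grey line, with 1 library per condition. Rab7 stands apart at the right with both circles together, and Rab13 and Rab27a have the widest gaps.

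The log2 ratio is given for clodronate RPKM + 1 over vehicle RPKM + 1, so it understates the difference of genes with low values. Over the 38 genes it had a median of -0.07 and ran from -1.11 for Rab27a to 1.35 for Rab13, with quartiles at -0.45 and 0.23. All genes that passed the filter had a median of 0.02 with quartiles at -0.38 and 0.40. In the clodronate library 18 Rab genes were higher, where 51.6% of all genes were, and 20 were lower, where 48.4% of all genes were. None of the 38 reached a 3-fold difference in either direction on this scale, where 5.18% of all genes did, 2.86% higher and 2.32% lower. On linear RPKM, without the 1 added, Rab27a alone of the 38 passed 3-fold, where 9.73% of all genes did. At 2-fold, 2 of the 38 were counted, or 5.26%, which stands beside 13.7% of all genes. They were Rab13, the 1 gene counted as higher where 6.95% of all genes were, and Rab27a, the 1 counted as lower where 6.77% were. On the same linear scale 4 Rab genes were up by 1.5-fold or more with clodronate, where 19.2% of all genes were, and 5 were down by as much, where 19.3% were. An exact 95% interval of each linear ratio was computed from the recovered reads. It covers counting error only, and it excluded 1 for 30 of the 38 genes and for 75.5% of all genes with at least 20 recovered reads. It covered 1 for 8 Rab genes, namely Rab3a, Rab4a, Rab4b, Rab6b, Rab7, Rab29, Rab32 and Rab40c.

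**Figure D2:**
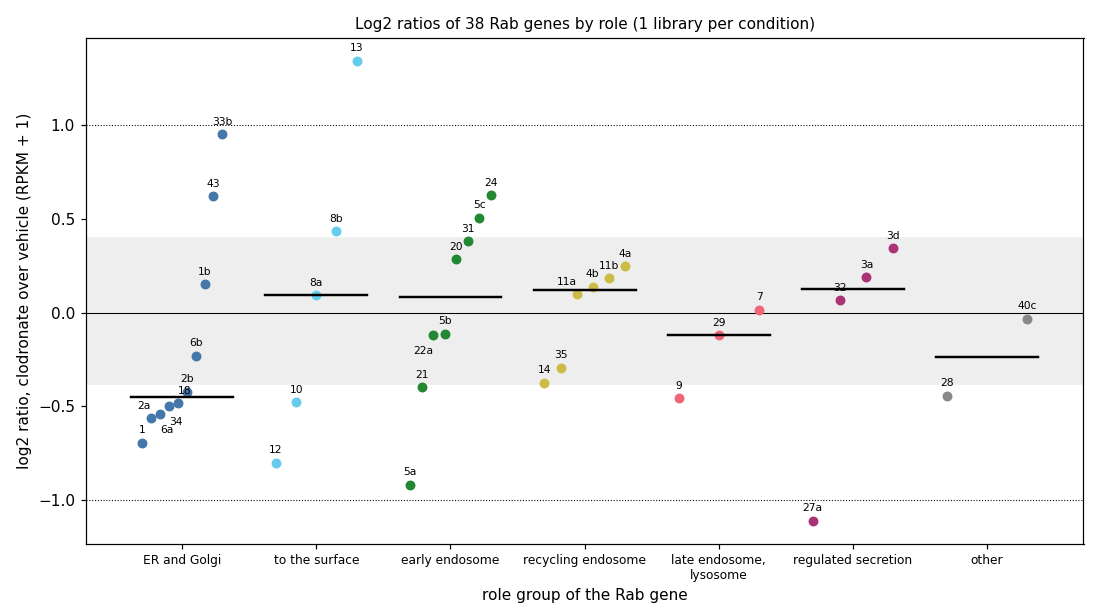
Log2 ratio of clodronate RPKM + 1 over vehicle RPKM + 1 for the 38 Rab genes by role (labels are the symbols without Rab), with the median of each role as a black bar, the quartile range of all genes as a grey band and 2-fold as dotted lines. Only Rab13 and Rab27a lie beyond a dotted line, and 7 of the 10 genes of the endoplasmic reticulum and Golgi lie below 0.

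Rab7, the GTPase of the late endosome that drives fusion with the lysosome, was the most abundant member. It stood at 632.9 RPKM in the vehicle library and 639.9 RPKM in the clodronate library, rank 153 and rank 150 among all genes. It alone held 29.6% and 30.6% of the summed Rab RPKM. Its log2 ratio was 0.02, and the counting interval of its linear ratio, from 0.989 to 1.03, covered 1. In the mm9 coordinates of the files its locus spans chr6:87950429-87963684. Without Rab7 the other 57 genes summed to 1505 RPKM and 1452 RPKM. The other members of the late endosome and lysosome were far lower. Rab9, which returns mannose 6-phosphate receptors to the Golgi, had 21.3 RPKM in the vehicle library and 15.3 RPKM in the clodronate library. Rab29, a Rab that binds the kinase Lrrk2, had 26.4 and 24.2 RPKM. Rab9b was at 0.326 RPKM in the vehicle library and listed at 0 in the clodronate library. A further late endosomal gene, Rab7b, carries the older symbol 5430435G22Rik in these files and so falls outside the symbol rule. It was looked up after the values were seen and stood at 120.6 and 109.6 RPKM.

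Close relatives at the early endosome differed in opposite directions. Rab5a, Rab5b and Rab5c share the task of early endosome fusion and recruit the same tethers. Rab5c was the most abundant of the trio and was higher in the clodronate library, at 182.8 RPKM with vehicle and 260.1 RPKM with clodronate. Rab5b was nearly level, at 56.8 and 52.5 RPKM. Rab5a was lower, at 31.8 RPKM with vehicle and 16.3 RPKM with clodronate. The linear ratio was 1.42 for Rab5c, with a counting interval from 1.37 to 1.48, and Rab5a was 1.95-fold lower, with its ratio between 0.456 and 0.578. The 3 genes together summed to 271.4 RPKM and 328.9 RPKM. Rab5a went from 11.7% of the group's RPKM to 4.97%, and Rab5c from 67.4% to 79.1%. On mm9 the loci are chr17:53618559-53678776 for Rab5a, chr10:128114239-128133324 for Rab5b and chr11:100576580-100599444 for Rab5c.

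The 3 paralogs differ along their whole coding sequence. The coding sequences, read from GENCODE M21 by RefSeq accession, were 73.3% to 76.3% identical in nucleotides, and the longest exact run shared by Rab5a and Rab5b was 35 nt. They differ in base composition, since the third base of a codon was G or C in 31.6% of codons of Rab5a, 56.3% of Rab5b and 64.4% of Rab5c. The codons of the P-loop, the stretch that holds the phosphates of GTP, and the last 8 codons before the stop show this. They are printed for the Rab5 trio because these paralogs differed in direction, with the codons of the lysine and of the serine or threonine after it in capitals in the P-loop, and cysteine codons, the sites of the lipid anchor, in capitals in the tail.
Rab5a P-loop: ggagagtctgctgttggcAAATCA
Rab5b P-loop: ggagagtctgcagtggggAAGTCT
Rab5c P-loop: ggcgagtctgccgtgggcAAGTCC
Rab5a tail: gccagaagccagTGTTGTagtaac
Rab5b tail: aacaagagccagTGTTGTagcaac
Rab5c tail: agccggagccagTGCTGCagcaac

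The promoters of the trio were compared as well. The 250 bases before the start site come from RefSeq on GRCm38.p6, and capitals mark matches to any of 5 motifs searched on both strands. These were the GC box GGGCGG, the CCAAT box CCAAT, the E-box CACGTG, the TATA box TATAAA and the interferon-stimulated response element, read as a pair of GAAA runs with 2 bases between them. Rab5a lies on the plus strand at chr17:53478984-53479233, Rab5b on the minus strand at chr10:128696269-128696518 and Rab5c on the minus strand at chr11:100738216-100738465.
Rab5a upstream: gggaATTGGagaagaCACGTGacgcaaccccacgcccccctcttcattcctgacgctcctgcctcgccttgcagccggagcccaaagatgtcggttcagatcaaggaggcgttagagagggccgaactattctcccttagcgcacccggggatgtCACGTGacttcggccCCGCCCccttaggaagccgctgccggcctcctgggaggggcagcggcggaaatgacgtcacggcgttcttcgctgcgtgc
Rab5b upstream: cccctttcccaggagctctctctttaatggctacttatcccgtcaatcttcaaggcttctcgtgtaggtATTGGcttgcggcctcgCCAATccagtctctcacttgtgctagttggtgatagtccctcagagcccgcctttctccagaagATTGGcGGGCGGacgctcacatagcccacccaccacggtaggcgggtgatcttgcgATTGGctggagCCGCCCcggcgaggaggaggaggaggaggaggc
Rab5c upstream: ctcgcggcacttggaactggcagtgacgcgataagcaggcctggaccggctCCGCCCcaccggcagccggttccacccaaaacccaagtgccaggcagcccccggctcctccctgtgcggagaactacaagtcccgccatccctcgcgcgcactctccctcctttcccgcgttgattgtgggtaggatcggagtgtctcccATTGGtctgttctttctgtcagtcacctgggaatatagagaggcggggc
The window of Rab5a held 2 matches to CACGTG, a palindrome that the lysosomal CLEAR element contains, and those of Rab5b and Rab5c held none. All 3 held GC boxes and CCAAT boxes, with 4 CCAAT boxes before Rab5b. A match is a run of letters and does not show binding.

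Of the other early endosomal Rabs, 4 were compared by level. Rab31, which sorts cargo between the Golgi and endosomes, stood at 50.9 RPKM with vehicle and 66.6 RPKM with clodronate. Rab22a, its paralog, stood at 21.3 and 19.5 RPKM. Rab21, a regulator of integrin uptake, was lower with clodronate, at 50.1 and 37.7 RPKM, and Rab20, a Rab of the maturing phagosome, was higher, at 30.8 and 37.7 RPKM. Rab24, linked to autophagy, had a low level and a linear ratio of 1.63, with 6.29 RPKM in the vehicle library and 10.3 RPKM in the clodronate library. The group's median log2 ratio was 0.09 with 4 genes higher and 4 lower. Rab17, a Rab of polarised epithelia, was listed at 0 in both libraries.

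Members of the endoplasmic reticulum and Golgi were lower on balance in the clodronate library. The 14 genes summed to 459.5 RPKM with vehicle and 361.6 RPKM with clodronate. Of the 10 that passed the filter, 7 were lower, where 48.4% of all genes were, and 3 higher, and the median log2 ratio was -0.45, the lowest of the 7 role groups. Rab1 and Rab1b, which act in transport from the endoplasmic reticulum to the Golgi, are the main pair. Rab1 stood at 170.6 RPKM in the vehicle library and 105.0 RPKM in the clodronate library, 1.62-fold lower, with a counting interval of the ratio from 0.589 to 0.644. Rab1b went the other way by a small amount, at 74.0 and 82.4 RPKM. Its share of the pair was 30.3% with vehicle and 44.0% with clodronate, the largest change in share among the paralog groups with at least 2 genes over the filter. The coding sequences of the pair were 76.1% identical, and their longest shared run, printed to show how far a read can be common to both, was 38 nt.
Rab1 and Rab1b shared run: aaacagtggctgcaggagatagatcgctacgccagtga

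The remaining genes of the early secretory pathway were led by Rab6a, which moves vesicles back through the Golgi and stood at 79.4 RPKM with vehicle and 54.3 RPKM with clodronate. Rab2a, needed for traffic between the endoplasmic reticulum and the Golgi and for fusion of lysosomes, stood at 45.4 and 30.4 RPKM. Rab18, a Rab of lipid droplets and the endoplasmic reticulum, stood at 42.4 and 30.04 RPKM. These genes were each lower with clodronate, with log2 ratios of -0.54, -0.56 and -0.48. The low paralogs Rab2b and Rab6b were lower too, at 10.46 and 7.56 RPKM and at 2.50 and 1.98 RPKM. Rab34, a Rab of the Golgi and of macropinosomes, was at 6.74 and 4.47 RPKM, 1.51-fold lower. Rab43 and Rab33b went the other way. Rab43, which acts at the Golgi and in antigen presentation, stood at 24.3 RPKM with vehicle and 37.95 RPKM with clodronate. Rab33b, which binds the autophagy factor Atg16l1, stood at 3.40 and 7.51 RPKM. Its linear ratio was 2.21, with a counting interval from 1.802 to 2.71, and its log2 ratio of 0.95 stopped just short of 2-fold. Rab30, Rab33a and Rab19 were listed at 0 in both libraries.

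Rab13 had the largest ratio of the Rab genes over the filter and belongs to the Rabs that carry cargo from the Golgi to the cell surface. It is known for its place at tight junctions and for a role in cell migration. It stood at 5.602 RPKM in the vehicle library and 15.8 RPKM in the clodronate library, a linear ratio of 2.82. By the recovered value of a read this rests on about 79.4 and 182 reads, and the counting interval ran from 2.16 to 3.73. On mm9 the locus is chr3:90024739-90029885. Markers of cell types known for tight junctions were low in both libraries. The summed RPKM of 8 endothelial markers was 3.34 with vehicle and 8.26 with clodronate, with Cldn5, Emcn and Tek listed at 0 in both, and that of 8 epithelial markers was 14.98 and 10.97. Among the endothelial markers, Cdh5 stood at 0.480 and 3.24 RPKM and Pecam1 at 1.24 and 3.33 RPKM. Kdr stood at 0.650 and 0.831 RPKM and Tie1 at 0 and 0.411 RPKM. Vwf was lower with clodronate, at 0.967 and 0.443 RPKM. Whether the endothelial markers, whose sum moved in the same direction, had a part in the value of Rab13 was not tested. Rab13 also differs from the Rab5 trio in its tail, which has a single cysteine codon in the fourth position from the end, in capitals here.
Rab13 P-loop: ggggactcgggggtgggcAAGACT
Rab13 tail: aagaagaacaagTGCttgttaggc

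The other genes placed in the role group of Rab13 were more abundant and moved less. Rab10, a Rab of exocytosis and of glucose transporter traffic, stood at 84.4 RPKM with vehicle and 60.3 RPKM with clodronate. An antisense gene, Rab10os, lies within its locus at 8.01 and 4.29 RPKM, and the library protocol in the labels does not mark strand, so reads of the overlap cannot be assigned. Rab8b stood at 60.9 and 82.7 RPKM and its paralog Rab8a, a Rab of cilia and of the basolateral surface, at 37.6 and 40.2 RPKM. Rab12, placed in this group although it sends transferrin receptors to degradation, stood at 40.7 and 22.9 RPKM, 1.77-fold lower with clodronate. All 5 genes of the group passed the filter. They summed to 229.1 RPKM and 221.9 RPKM, since the lower values of Rab10 and Rab12 stood against the higher ones of Rab8b and Rab13.

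The recycling Rabs over the filter differed by less than 1.5-fold between the libraries. The counting interval still excluded 1 for Rab11a, Rab11b, Rab14 and Rab35. Rab11a, the main GTPase of the recycling endosome, stood at 86.2 RPKM with vehicle and 92.4 RPKM with clodronate, and Rab11b at 30.5 and 34.8 RPKM. Rab14, which links recycling with the phagosome, was lower with clodronate, at 67.6 and 52.0 RPKM, and so was Rab35, a Rab of fast recycling, at 41.8 and 33.9 RPKM. Rab4b, the more abundant of the Rab4 pair, stood at 38.1 and 42.0 RPKM and Rab4a at 3.06 and 3.82 RPKM. The 6 genes over the filter had log2 ratios between -0.37 and 0.25, a narrower span than any other group of more than 5 genes. The late endosome group, 3 genes between -0.46 and 0.02, and the 2 less studied genes, between -0.44 and -0.03, spanned less. With the correction for GC content and length described below, the 6 recycling genes ran from -0.46 for Rab35 to 0.40 for Rab11a. Rab15 and Rab25, also recycling Rabs, were listed at 0 in both libraries.

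Of the Rabs of regulated secretion and lysosome-related organelles, few were present. Rab32, a Rab of melanosomes and of host defence in macrophages, was the only abundant one, at 37.7 RPKM with vehicle and 39.5 RPKM with clodronate. Rab3d stood at 7.72 and 10.1 RPKM and Rab3a, the synaptic vesicle Rab, at 1.69 and 2.07 RPKM. Rab27a, which docks secretory lysosomes and exosome carriers at the plasma membrane, had the lowest ratio of the Rab genes over the filter. It stood at 3.93 RPKM in the vehicle library and 1.28 RPKM in the clodronate library, 3.06-fold lower on linear RPKM, with its ratio between 0.225 and 0.467 and about 150 and 39.9 reads behind it. With a pseudocount of 1 its log2 ratio was -1.11, which is why it was counted at 2-fold and not at 3-fold. Its locus on mm9 is chr9:72892672-72945399. Neutrophils and T or NK cells also use Rab27a. The neutrophil markers summed to 43.1 RPKM with vehicle and 45.1 RPKM with clodronate. Those of T or NK cells summed to 11.4 and 9.76 RPKM. Of 3 neutrophil markers over the filter, Csf3r (26.4 and 19.3 RPKM) and Cxcr2 (4.06 and 2.69 RPKM) were lower with clodronate. S100a8 was higher, at 12.7 and 23.1 RPKM. Cd4, the 1 T or NK marker over the filter, stood at 10.3 and 7.72 RPKM and made up most of that sum. Below the filter, Nkg7 (0 and 1.02 RPKM), Klrb1c (0 and 0.918 RPKM) and Cd8a (0 and 0.0307 RPKM) were higher with clodronate. Cd3d (0.837 and 0.0789 RPKM) and Lck (0.310 and 0 RPKM) were lower. Mpo, Elane, Cd3e and Cd3g were listed at 0 in both libraries. Whether these cells had a part in the value of Rab27a was not tested. Its paralog Rab27b stood at 0.0109 and 0.200 RPKM.

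The less studied members had low levels. Rab28, a Rab of cilia and photoreceptors, stood at 10.99 RPKM with vehicle and 7.82 RPKM with clodronate, and Rab40c, which belongs to a branch with a SOCS box, at 6.61 and 6.44 RPKM. Outside the filter were 20 members. Of these, 10 were listed at 0 in both libraries, namely Rab15, Rab17, Rab19, Rab25, Rab26, Rab30, Rab33a, Rab37, Rab40b and Rab42. The other 10 did not exceed 1.03 RPKM in either library, the value of Rab23 with vehicle, and 4 of them were listed at 0 in 1 library. They include the neuronal Rab3b and Rab3c, the melanosomal Rab38 and the large Rab44. No fold is given for these genes. Many of the genes at 0 are known from neurons, glands or polarised epithelia.

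Within the 9 paralog groups with at least 2 genes over the filter, the order of the paralogs by level was the same in both libraries in all 9. Rab2a held 81.3% of its pair with vehicle and 80.1% with clodronate, Rab6a 96.9% and 96.5%, and Rab4b 92.6% and 91.7%. Rab11a held 73.9% and 72.6%, and Rab3d held 79.9% and 82.9% of the Rab3 group. The shares of the Rab1, Rab5, Rab8 and Rab22a with Rab31 groups moved by more, and Rab8b went from 61.8% to 67.3% and Rab31 from 70.5% to 77.3%. Each share is a single value per library. The plot of paralog shares sets the libraries side by side.

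**Figure D3:**
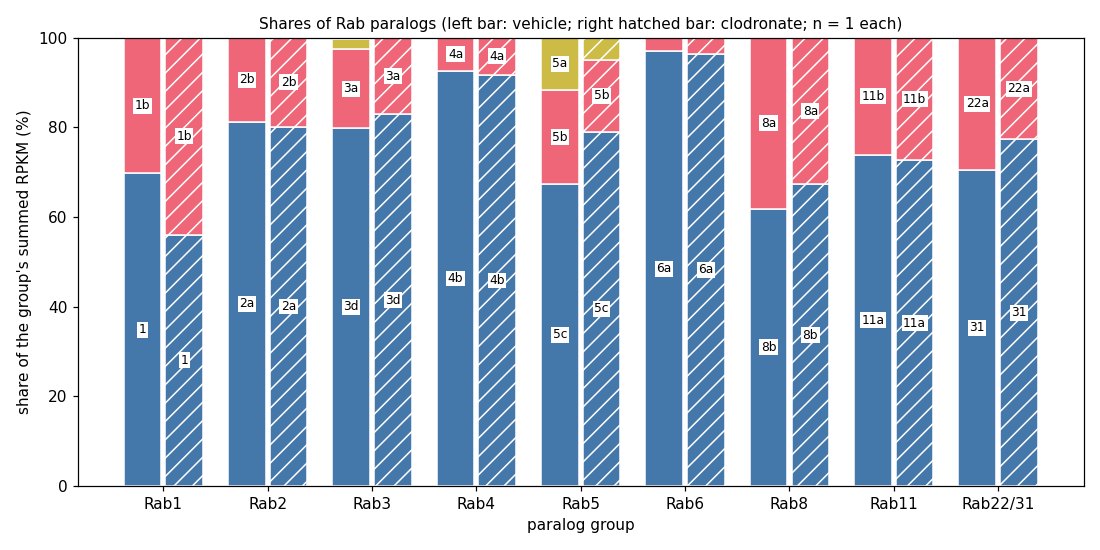
Share of each paralog in the summed RPKM of its group, in percent, with vehicle as the left bar and clodronate as the right hatched bar of each pair, 1 library each. The Rab1 pair and the Rab5 trio show the widest shifts, with Rab1b from 30.3% to 44.0% and Rab5c from 67.4% to 79.1%.

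The coding sequences of the family share features that the symbol rule did not use. A coding sequence was found for all 58 genes, with lengths from 582 nt for Rab22a to 2175 nt for Rab44 and a median of 645 nt. The P-loop codons, read as glycine, any 4 residues, glycine, lysine and serine or threonine, were present in 56 of the 58 and not found in Rab40b and Rab40c. The end of the protein fell into 4 patterns of cysteine codons. A pair at the very end was found in 14 genes, Rab1 among them, the last and the third from last codon in 20, Rab7 among them, a pair followed by 1 to 3 further codons in 15, the Rab5 trio among them, and a cysteine in the fourth position from the end without a pair in 9, Rab13 among them. Among the 38 genes over the filter these counts were 12, 11, 9 and 6. Across 21 pairs within paralog groups the coding sequences were 63.4% to 77.2% identical. The most abundant genes with the first and the second of these patterns are shown with cysteine codons in capitals.
Rab1 tail: aagcagtcaggtggaggcTGCTGC
Rab7 tail: gcctccgcagaaagcTGCagtTGT

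The promoters of the Rab genes were rich in G and C. A RefSeq promoter on GRCm38.p6 was matched for 47 of the 58 genes, of which 34 passed the filter. In the 250 bases before the first listed start, the median GC content was 62.4% for the 34 genes, 57.6% for the 13 others and 52.0% for all 27025 genes with a promoter, and the median number of CpG dinucleotides was 19, 8 and 6. The GC box GGGCGG was found in 68.1% of the Rab promoters and in 32.9% of all, and CCAAT in 46.8% and 34.5%. CACGTG was found in 4 Rab promoters, those of Rab5a, Rab20, Rab21 and Rab23, or 8.51% against 6.05% of all. TATAAA was found in 8.51% against 12.97%. The interferon-stimulated response element was found in 1 Rab promoter, that of Rab19, or 2.13% against 3.04%. The 27025 genes were not filtered by level, so the Rab genes were not set beside genes of like level. These shares describe letters in this window and were not set beside binding data.

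Rab genes with a GC-rich transcript tended to the higher ratios. Across the 38 genes Pearson's r between GC content and log2 ratio was 0.43 and Spearman's rank correlation 0.49, a description across genes that share both libraries. Across the 10844 genes with a matched transcript r was 0.17 and the rank correlation 0.24. The 19 Rab genes with the lower GC content, up to 48.4%, had a median log2 ratio of -0.44, with 14 lower and 5 higher. All genes of the same GC span had a median of -0.12. The 19 with the higher GC content had a median of 0.15, with 13 higher and 6 lower, where all genes of that span had a median of 0.10. Over all GC contents, 51.6% of all genes were higher and 48.4% lower, and these shares were not counted within each span. Rab5a had a transcript GC content of 42.3% and Rab5c 54.5%, and Rab1 had 40.8% and Rab1b 58.9%. After the median of all genes in 10 bins of GC content and then of length was subtracted, the median of the 38 was -0.10. Of the 38, 16 were then higher and 22 lower, where 50% of all genes were higher and 50% lower. The rank correlation was then 0.30. Rab5a then stood at -0.70, Rab5c at 0.48, Rab1 at -0.45, Rab13 at 1.56 and Rab27a at -1.10. Rab1b and Rab4b changed sign, to -0.04 and -0.03, and Rab33b passed 2-fold at 1.01. The group of the endoplasmic reticulum and Golgi kept the lowest median, at -0.36, with 2 higher and 8 lower, where 50% of all genes were lower. The part that GC content of the fragments had in these ratios was not tested beyond this correction.

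**Figure D4:**
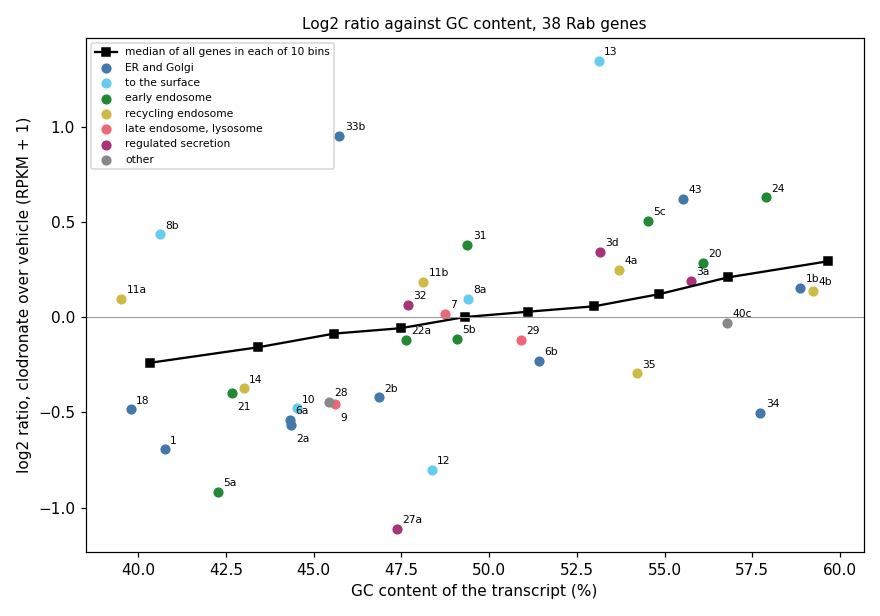
Log2 ratio of clodronate RPKM + 1 over vehicle RPKM + 1 against the GC content of the transcript in percent for the 38 Rab genes, coloured by role and labelled by symbol without Rab, with black squares for the median of all genes in each of 10 GC bins. The medians of all genes run from -0.24 in the lowest bin to 0.29 in the highest, and Rab5a, Rab12 and Rab27a lie below them and Rab13 and Rab33b above.

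The proteins that load and recycle Rabs were read from 7 lists of known regulators and related GTPases. In these lists no gene over the filter reached 3-fold with 1 RPKM added, where 5.18% of all genes did. On linear RPKM 6 genes passed 3-fold, where 9.73% of all genes did. The counts past 2-fold that follow, here and for exchange factors, effectors and the other lists, stand beside 6.95% of all genes higher and 6.77% lower. The counts of genes higher or lower by any amount stand beside 51.6% of all genes higher and 48.4% lower. Of 10 genes for prenylation, escort and GDP dissociation, 4 were higher and 6 lower, with a median log2 ratio of -0.18. Gdi2, the broadly expressed dissociation inhibitor, stood at 280.4 RPKM with vehicle and 206.2 RPKM with clodronate. Rabac1, a receptor for prenylated Rabs, stood at 106.6 and 77.9 RPKM. Rabggtb, the beta subunit of the enzyme that attaches the lipid to Rab tails, was the only one past 2-fold, at 38.6 RPKM with vehicle and 15.7 RPKM with clodronate, a log2 ratio of -1.24. With the GC and length correction it stood at -0.96, short of 2-fold, and the median of the list was -0.07.

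Exchange factors and GTPase-activating proteins gave few large differences. Of 42 exchange factors, 41 passed the filter, with 23 higher, 18 lower, 1 past 2-fold in each direction and a median of 0.08, which turned to -0.08 after the correction. Trappc1, a subunit of the TRAPP complexes that activate Rab1 and Rab11, was the most abundant, at 214.6 RPKM with vehicle and 166.4 RPKM with clodronate. Rab3il1, which activates Rab8, stood at 68.2 and 94.7 RPKM, and Dennd5a, which acts on Rab39, at 72.0 and 82.7 RPKM. Of 36 GTPase-activating proteins, 34 passed the filter, with 22 higher and 12 lower and a median of 0.16, or 0.07 after the correction. Tbc1d17, which controls receptor recycling through Rab8, and Tbc1d25, which acts on Rab33b in autophagy, were past 2-fold. Tbc1d17 stood at 7.53 RPKM with vehicle and 16.7 RPKM with clodronate, and Tbc1d25 at 3.15 and 10.53 RPKM. After the correction Tbc1d25 stood at 1.27 on the log2 scale and Tbc1d17 at 0.72, short of 2-fold.

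Effectors, tethers and coats were set beside the Rabs that recruit them. Of 55 effectors, 44 passed the filter, with 21 higher and 23 lower, 1 past 2-fold higher and 2 past 2-fold lower. Rabep1, which binds Rab5 and Rab4 and works with a Rab5 exchange factor, stood at 14.6 RPKM with vehicle and 5.96 RPKM with clodronate, a log2 ratio of -1.17. Rab11fip5, an effector of Rab11, was the most abundant, at 105.2 and 60.8 RPKM, and its log2 ratio of -0.78 became -1.06 after the correction. Of the 10 subunits and partners of HOPS and CORVET, the tethers that Rab7 and Rab5 recruit, 8 were higher and 2 lower, with a median of 0.31 and none past 2-fold, and 0.22 after the correction. Vps11, a subunit of both, stood at 23.2 and 29.9 RPKM, and Vps41, a subunit of HOPS alone, at 28.9 and 21.0 RPKM. The 10 genes of retromer and its sorting nexins, a coat that Rab7 recruits to endosomes, had 4 higher and 6 lower with a median of -0.07, which turned to 0.10 after the correction, and the most abundant, Snx3, stood at 351.9 and 445.7 RPKM. A neighbouring family of GTPases served as a comparison. The 26 Arf family genes over the filter had a median of -0.05, which turned to 0.05 after the correction, with Arf1, which recruits coats at the Golgi, at 279.0 and 278.4 RPKM.

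**Figure D5:**
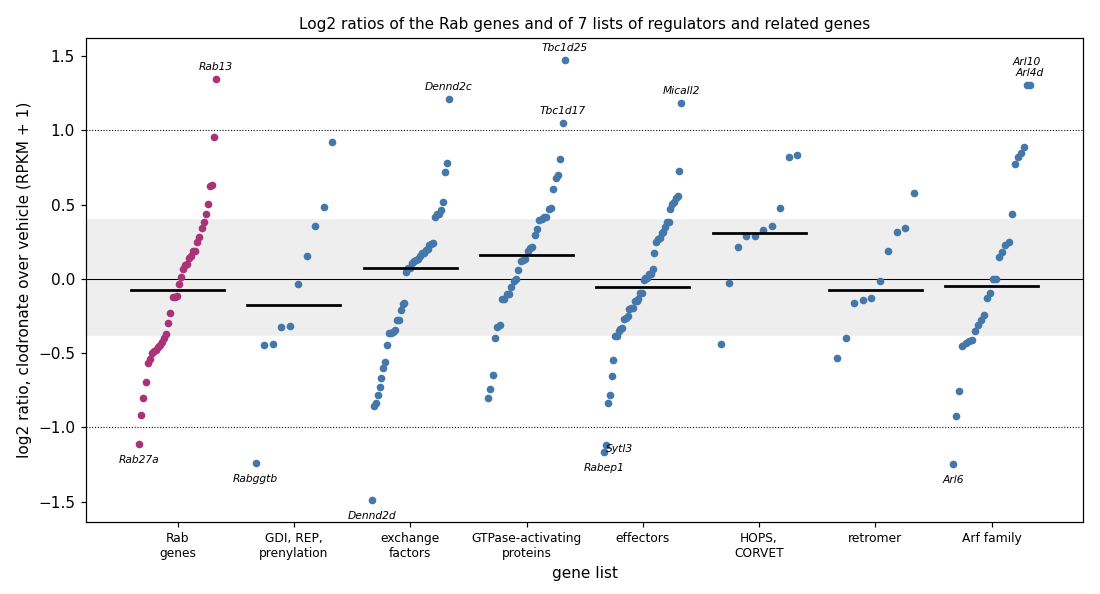
Log2 ratio of clodronate RPKM + 1 over vehicle RPKM + 1 for the 38 Rab genes (purple) and for the genes of 7 lists over the filter (blue), each point a gene, with the median as a black bar, the quartile range of all genes as a grey band and 2-fold as dotted lines. The medians lie between -0.18 for the prenylation and dissociation genes and 0.31 for HOPS and CORVET, within the grey band.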

How the data were processed

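The deposited files hold RPKM values that the authors made for 23170 gene loci in each of 2 libraries, with RefSeq accessions, symbols and coordinates of mm9. The submitters' processing notes name CASAVA 1.8.2, TopHat2 2.0.9, Bowtie 0.12.9, Cufflinks 2.2.1, Cuffdiff and the build mm9, without a role or order for each. The paper linked to these data describes another experiment and was not used for methods. RPKM are not counts, so no count model was fitted. Symbols turned into numbers (26) were replaced by the accession, and lines of the same symbol were summed, which left 22886 genes. Locus starts, counted from 0 in the files, are printed counted from 1.

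A log2 ratio is log2 of clodronate RPKM + 1 over vehicle RPKM + 1, for genes averaging 1 RPKM or more. Calls are at 3-fold and 2-fold on that scale. The RPKM of 1 read was taken as the commonest value of RPKM times length among low loci, and 1 read at 1 kb was worth 0.0781 RPKM with vehicle and 0.0959 RPKM with clodronate. Reads of a gene were estimated from it, and exact Clopper-Pearson intervals of the ratio (95%) cover counting error only. Length and GC content came from GENCODE M21 transcripts of the same accessions, and promoters from RefSeq on GRCm38.p6. Coordinates of mm9 and GRCm38 were not combined. Any Rab gene and any marker could be named, and of the regulator lists the 3 genes with the highest mean and those at least 2-fold different averaging 5 RPKM or more. Members, roles and lists were chosen with earlier results of these data known, and the role of Rab29 was set after the files were opened. Alternatives tried were ratios with a pseudocount of 0.1, without the filter or with a filter at 5 RPKM, centred ratios, upper-quartile scaling, the highest line of a symbol and correction for GC content and length. A planned comparison of protein sequences was replaced by coding sequences, since proteins were not used here. Some items are not reported here. The steps were tested on simulated data. Python 3.11.15, numpy 2.4.6, pandas 2.3.3, scipy 1.17.1 and Biopython 1.88 were used.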

Additional observations from a re-analysis of the deposited data

How the results depend on the processing

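With 1 library per condition, no difference has a replicate check, and the counting intervals leave out every source of variation between mice, sorts and libraries. No paired analysis was possible, since each condition has a single library. The count of Rab genes past 3-fold was 0 in each direction under every alternative listed, each of which adds a pseudocount. Under these alternatives the share of all genes past 3-fold, higher or lower, ran from 2.49% without the filter to 9.22% with a pseudocount of 0.1. On linear RPKM, without a pseudocount, Rab27a alone of the Rab genes averaging 1 RPKM or more passed 3-fold, at 3.06-fold lower. Of all genes with that filter, 9.73% did. Rab genes below the filter are left out of this count. The count past 2-fold higher was 2 in place of 1 with a pseudocount of 0.1 and after correction for GC content and length, with Rab33b added to Rab13. Of all genes, 9.4% were past 2-fold higher with that pseudocount and 7% after that correction, in place of 6.95%. The count past 2-fold lower was 0 in place of 1 with the filter at 5 RPKM, since Rab27a is below that filter. With that filter 4.47% of all genes were past 2-fold lower, in place of 6.77%. The median log2 ratio of the Rab genes ran from -0.13 with upper-quartile scaling to 0 without a filter, and the clodronate sum was 2004 RPKM with the scaling. With the filter at 5 RPKM the median of the effectors changed sign, from -0.05 to 0.00904 and that of the prenylation and dissociation genes was -0.0358 in place of -0.18. Correction of the lists for GC content and length was chosen after seeing the data, and it turned the medians of the exchange factors to -0.0806, of retromer to 0.10 and of the Arf family to 0.0481, and moved that of the prenylation and dissociation genes to -0.0659. The medians of the 7 role groups kept their sign under the filter and the correction. Taking the highest line of a symbol changed no Rab value, since each Rab gene has 1 line.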

Other observations

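Several genes with a Rab-like name fall outside the symbol rule. Rab26os, an RNA named as antisense to Rab26, stood at 62.6 RPKM with vehicle and 5.55 RPKM with clodronate, a log2 ratio of -3.28, while Rab26 itself was listed at 0 in both libraries. Ift27, a Rab-like subunit of the machinery that carries cargo along cilia, stood at 2.95 RPKM with vehicle and 11.8 RPKM with clodronate, a log2 ratio of 1.70. Ift22, another Rab-like subunit of that machinery, named here after its values were seen, stood at 19.0 and 26.8 RPKM. These values have no replicate check either, and the protocol does not mark strand.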
